A study of Mus musculus with 6 samples.

Results

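The ASB genes encode proteins with ankyrin repeats and a SOCS box, and 10 of them, grouped as muscle adaptors, are described here among 22180 genes measured in mouse gastrocnemius, a calf muscle. The 10 genes, Asb2, Asb4, Asb5, Asb8, Asb10, Asb11, Asb12, Asb14, Asb15 and Asb18, were picked by name with earlier results of the same arrays known, and each was read from 1 probe set, the brightest on average where a gene had several. Their difference between the groups is therefore given as a description, and the adjusted p-values, taken over all genes, are no independent support for it. RNA came from 3 control mice carrying a floxed TAK1 gene and from 3 littermates in which TAK1 had been deleted in skeletal muscle for 3 weeks, with 1 Affymetrix array per mouse. TAK1 is the kinase encoded by Map3k7. The sources used here do not give the promoter that drove the deletion, the deleted exons, or the age and sex of the mice. All values are log2 probe set levels, so a difference of 1 is a doubling, and levels of different genes cannot be set against each other.

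In an ASB protein the ankyrin repeats bind the protein to be degraded, and the SOCS box joins elongin B, elongin C and cullin-5 with its RING partner Rnf7 into a ubiquitin ligase. The adaptor thus sets the ligase's substrate. Several ASB genes are expressed mainly in striated muscle. The muscle form of ASB2 directs breakdown of filamins, actin cross-linking proteins, and raising its amount reduces muscle mass.

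To show what lies before these genes, promoter sequences were taken from RefSeq (build GRCm38.p6), which held 15 windows of 250 bases before a transcription start for the 10 genes, 6 genes with 1 start and 4 with several. A match to the motif of MEF2, a family of muscle transcription factors, was found on either strand in 4 of the 15 windows (26.7%), against 2.92% of all 32851 windows of that length. The last 100 bases before the start of those 4 windows, and of the Asb15 window, are shown 5′ to 3′ with the MEF2 match in capitals. Asb15 is shown because it had the largest difference between the groups, and no match lay in its window.
Asb14, chr14:26894514-26894613, plus strand: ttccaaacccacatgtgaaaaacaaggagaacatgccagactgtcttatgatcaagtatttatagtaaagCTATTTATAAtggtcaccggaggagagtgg
Asb18, chr1:90014667-90014766, minus strand: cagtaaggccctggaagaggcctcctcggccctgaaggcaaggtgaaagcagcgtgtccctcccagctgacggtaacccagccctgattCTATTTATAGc
Asb12, chrX:95478130-95478229, minus strand: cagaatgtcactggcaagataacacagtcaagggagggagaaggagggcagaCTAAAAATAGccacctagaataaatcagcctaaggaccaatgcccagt
Asb5, the second of its starts, chr8:54571339-54571438, plus strand: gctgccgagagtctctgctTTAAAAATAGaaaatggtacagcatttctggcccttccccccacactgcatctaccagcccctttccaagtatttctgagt
Asb15, chr6:24528044-24528143, plus strand: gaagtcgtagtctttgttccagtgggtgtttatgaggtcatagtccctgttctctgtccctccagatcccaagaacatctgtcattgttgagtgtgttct

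The match began 30 bases before the start in Asb14, 11 in Asb18, 48 in Asb12 and 81 in Asb5, and in Asb14 and Asb18 it overlapped a TATAAA on the opposite strand. The E-box CANNTG, which myogenic factors bind, lay in 11 of the 15 windows (73.3%, against 66.2% of all windows), and its form CAGCTG in 1 (6.67% against 13.0%), that of Asb18. TATAAA was found in 4 windows (26.7% against 12.4%) and the CArG box of serum response factor in 2 (13.3% against 1.47%), 1 of Asb2 and 1 of Asb5. Of motifs of factors that lie downstream of TAK1, the AP-1 motif TGANTCA was in 0 windows (6.75% of all) and the NF-kB motif in 1 (7.25% of all), a window of Asb8. A match is a description of the letters only, and windows of 1 gene share that gene.

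Median log2 levels of the 6 arrays ran from 5.78 to 5.84. Map3k7 itself was at 8.47, 8.32 and 8.42 in controls 1 to 3 and at 8.20, 8.28 and 8.17 in knockouts 1 to 3. Every knockout value lay below every control value, with a gap of 0.044, as in 6.65% of all genes. The Map3k7 knockout mean was 87.9% of the control mean (limma, adjusted p = 0.686). Background was taken as the level that 95% of olfactory and vomeronasal receptor genes stayed below, 5.85. Muscle fibre markers lay above it in 14 of 14 cases, and both group means of all 10 ASB genes did so too. Bulk RNA cannot tell fewer cells of a type from less RNA per cell.

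Among the 10 genes, 1 passed an adjusted p of 0.05 over all genes as lower in knockout muscle, Asb15, and 0 passed as higher (limma). Of all genes, 0.0541% passed as lower and 0.0406% as higher. At an unadjusted p under 0.05, 6 of the 10 genes were lower, against 4.12% of all genes (8.04% in either direction). In 6 genes (Asb4, Asb5, Asb10, Asb14, Asb15 and Asb18) every knockout value lay below every control value, and in the remaining 4 (Asb2, Asb8, Asb11 and Asb12) the groups overlapped. Of all genes, 6.65% were separated in this way, and 8.44% of the genes above background. The knockout mean was lower in 9 of 10 genes, against 50.1% of all genes, and the median difference was −0.42, against −0.0003 over all genes. Nothing is read from these counts beyond the genes themselves, since the genes were picked with the contrast known. With any 1 array left out, 6 or 7 of the 10 genes were separated as lower, against 10.1% to 13.1% of all genes, and 7 to 10 had a lower mean.

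**Figure D1:**
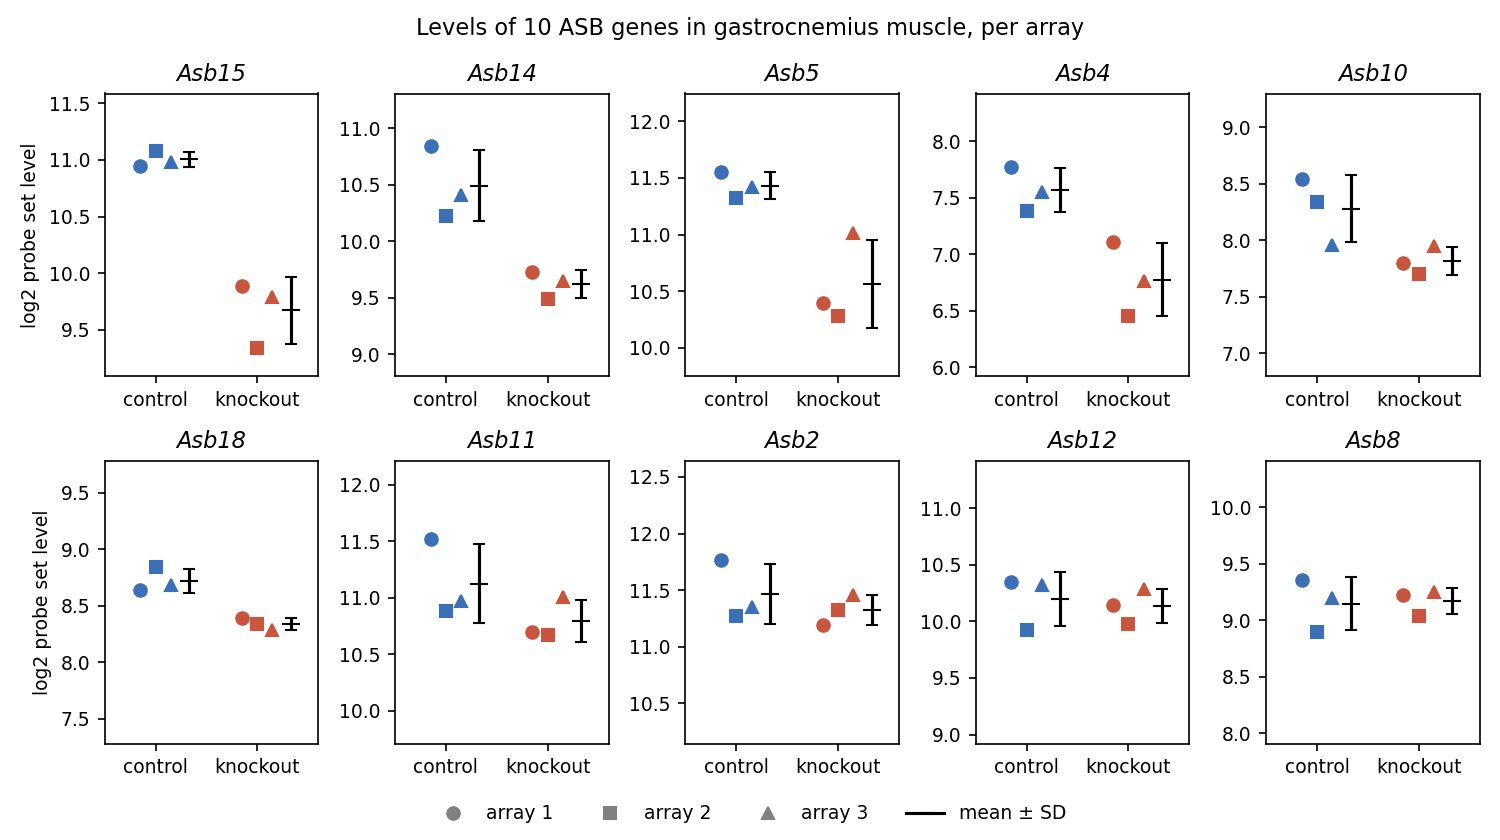
Log2 probe set level of each of the 10 ASB genes on each array, control in blue and knockout in red, with 1 symbol per array number and the mean ± SD (n = 3) beside the points. Each panel spans 2.5 log2 units, and panels are ordered by the difference between groups. Asb15 shows the widest gap, from 10.95 as the lowest control to 9.88 as the highest knockout.

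Asb15 has been linked to protein turnover and growth of muscle cells. Its level was 10.95, 11.08 and 10.99 in controls 1 to 3 and 9.88, 9.34 and 9.79 in knockouts 1 to 3. The controls lay within a narrow band and all knockouts lay more than 1 log2 unit below it, knockout 2 lowest. The means were 11.01 ± 0.07 and 9.67 ± 0.29 (SD, n = 3), so the transcript fell to 39.6% of the control level, or 2.53-fold (log2 difference −1.34, 95% confidence interval −1.67 to −1.002; limma, adjusted p = 0.0308). With 5 arrays the difference was −1.44 to −1.17, but the adjusted p was then 0.0518 to 0.164, so the call was lost whichever of the 6 arrays was left out. It was also lost when every probe set was tested (adjusted p = 0.149) and without variance shared between genes (0.456).

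Asb14 and Asb5, substrate adaptors whose targets are less well known, had the next largest differences, and neither passed. Asb14 was at 10.84, 10.22 and 10.41 in controls 1 to 3 and at 9.73, 9.49 and 9.65 in knockouts 1 to 3. The knockouts were close together, and control 1 stood above the other controls. The difference was −0.87 (95% confidence interval −1.24 to −0.51; limma, adjusted p = 0.146), with the knockout mean at 54.6% of control. Asb5 was at 11.55, 11.32 and 11.42 in controls 1 to 3 and at 10.40, 10.28 and 11.01 in knockouts 1 to 3. Knockout 3 lay nearer to the controls than to the other knockouts. The difference was −0.87 (95% confidence interval −1.29 to −0.45; limma, adjusted p = 0.217). Without knockout 3 it was −1.09 and passed (limma, adjusted p = 0.0485), the only call of Asb5 in 6 fits with 1 array left out. Over those 6 fits the difference ran from −1.09 to −0.73 and the limma adjusted p from 0.0485 to 0.535.

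Asb4, an adaptor known from blood vessels and an interactor of the oxygen sensor FIH (Hif1an), was at 7.77, 7.38 and 7.55 in controls 1 to 3 and at 7.10, 6.46 and 6.77 in knockouts 1 to 3. All knockouts lay below all controls, with knockout 2 lowest. The difference was −0.79 (95% confidence interval −1.19 to −0.40; limma, adjusted p = 0.233), with the knockout mean at 57.8% of control. The log2 of the summed linear levels of 10 endothelial markers, a value weighted to the brightest, was 11.71 to 12.05 in controls and 11.86 to 11.90 in knockouts. Their median difference was −0.003. Of these markers 5 were lower and 5 higher. Egfl7 was lower without overlap (−0.25), 1 of the 10 against 6.65% of all genes. The part of endothelial cells in the Asb4 difference was not tested.

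Asb10 and Asb18 had smaller differences in the same direction. Asb10, which has been studied in an inherited form of glaucoma, was at 8.54, 8.34 and 7.96 in controls 1 to 3 and at 7.80, 7.70 and 7.95 in knockouts 1 to 3. The lowest control exceeded the highest knockout by only 0.011, less than the SD within either group (0.30 and 0.12). Its difference was −0.46 (95% confidence interval −0.81 to −0.11; limma, adjusted p = 0.468). Asb18 was at 8.63, 8.84 and 8.68 in controls 1 to 3 and at 8.39, 8.34 and 8.29 in knockouts 1 to 3. Its values were tight in both groups, with a gap of 0.24 and a difference of −0.38 (95% confidence interval −0.60 to −0.15; limma, adjusted p = 0.327).

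Asb2, the filamin adaptor, did not separate the groups. It was at 11.77, 11.27 and 11.35 in controls 1 to 3 and at 11.19, 11.32 and 11.45 in knockouts 1 to 3. Control 1 was the highest array and the other controls lay among the knockouts. The difference was −0.14 (95% confidence interval −0.47 to 0.19; limma, adjusted p = 0.871), and 0.01 without control 1. The interval leaves room for a mean between 0.47 lower and 0.19 higher, so equal levels are not shown.

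Asb11, an adaptor found at the endoplasmic reticulum, also had overlapping groups. It was at 11.52, 10.88 and 10.97 in controls 1 to 3 and at 10.70, 10.67 and 11.01 in knockouts 1 to 3. Knockout 3 lay above 2 of the controls. The difference was −0.33 (95% confidence interval −0.74 to 0.08; limma, adjusted p = 0.714), and −0.13 without control 1.

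Asb12 and Asb8 lay closest to no difference. Asb12 was at 10.35, 9.93 and 10.32 in controls 1 to 3 and at 10.15, 9.98 and 10.29 in knockouts 1 to 3, with a difference of −0.06 (95% confidence interval −0.38 to 0.26; limma, adjusted p = 0.959). Its sign turned without control 1, control 3 or knockout 2. A further Asb12 probe set had a mean of 3.95, below background, and a difference of 0.12. Asb8 was at 9.35, 8.89 and 9.19 in controls 1 to 3 and at 9.22, 9.04 and 9.25 in knockouts 1 to 3, with a difference of 0.02 (95% confidence interval −0.28 to 0.33; limma, adjusted p = 0.987). In both genes array 2 was the lowest of each group.

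**Figure D2:**
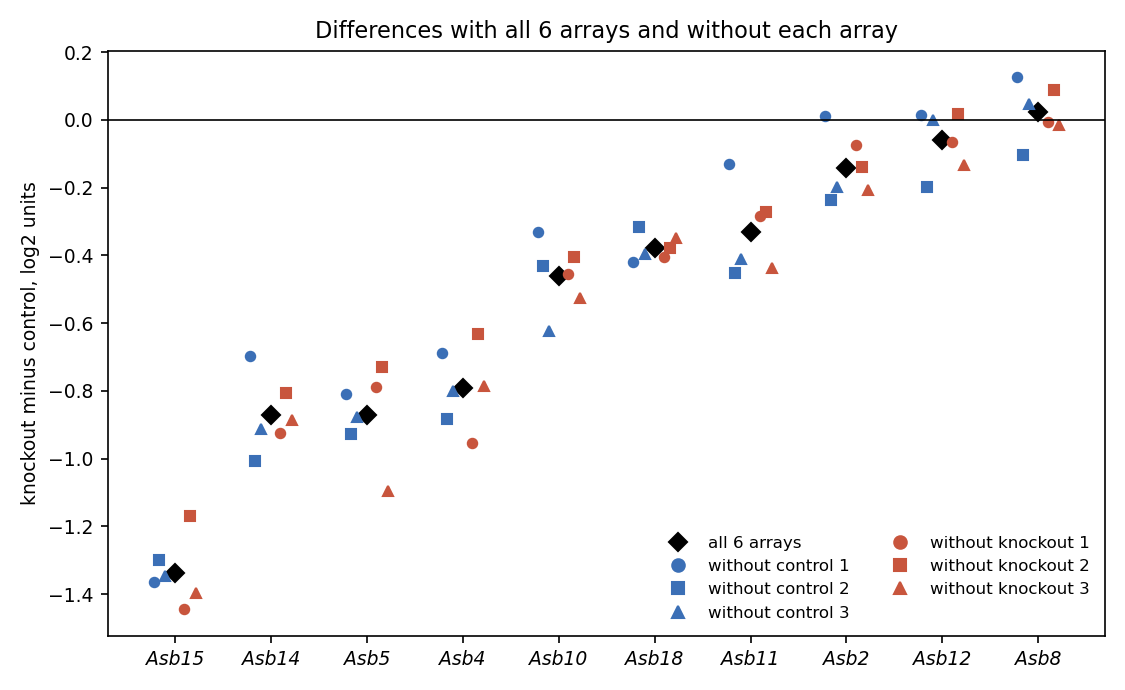
Difference between knockout and control means on the log2 scale (vertical axis) for each of the 10 genes, with all 6 arrays as black diamonds and without each array in turn as coloured symbols. Asb15 stays between −1.44 and −1.17, while the signs of Asb2, Asb12 and Asb8 turn when single arrays are left out.

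The arrays differed from each other in the same direction for many of the 10 genes. Control 1 was the highest control in 8 of the 10 genes, against 39.2% of all genes above background, with Asb15 and Asb18 as the exceptions. Knockout 2 was the lowest knockout in 8 genes. The share of genes above background with knockout 2 lowest was 43.4%. Centred on each gene's mean, the median of the 10 genes was 0.52, 0.19 and 0.15 in controls 1 to 3 and −0.22, −0.31 and −0.04 in knockouts 1 to 3. Knockout 3 was thus nearest to the controls, and no knockout median reached the lowest control median.

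Setting 2 genes of 1 array against each other removes what that array adds to both. Relative to its control mean, Asb14 minus Asb2 was 0.05, −0.08 and 0.03 in controls 1 to 3 and −0.49, −0.86 and −0.84 in knockouts 1 to 3. The spread of Asb14 over controls was therefore nearly all shared with Asb2, and the knockouts lay clear of it. Asb15 minus Asb2 was −0.36, 0.27 and 0.09 in controls 1 to 3 and −0.85, −1.53 and −1.21 in knockouts 1 to 3, with no overlap. That was fixed in advance, since Asb15 alone had a gap of 1.07 while Asb2 ran only from 11.19 to 11.77. Asb5 minus Asb2 was −0.18, 0.08 and 0.10 in controls 1 to 3 and −0.76, −1.01 and −0.42 in knockouts 1 to 3, also with no overlap. All 3 of these pairs take Asb2 as the reference. Asb2 minus Asb11 did not overlap either and was −0.10, 0.05 and 0.04 in controls and 0.15, 0.31 and 0.11 in knockouts. Asb15 minus Asb14 did overlap, at −0.41, 0.35 and 0.06 in controls and −0.36, −0.67 and −0.37 in knockouts. So did Asb15 minus Asb5, at −0.18, 0.19 and −0.01 in controls and −0.09, −0.52 and −0.79 in knockouts, and Asb11 minus Asb12, at 0.25, 0.03 and −0.28 in controls and −0.37, −0.23 and −0.20 in knockouts. Asb14 minus Asb5 overlapped too, at 0.23, −0.16 and −0.07 in controls and 0.27, 0.15 and −0.42 in knockouts, with a mean change of −0.001. These are values within arrays for chosen pairs, given without a test, and the share of all gene pairs that separate was not counted. Where a pair separated, the values show unequal change of its 2 genes only.

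By the root mean square distance between centred values over the 6 arrays, Asb8 and Asb12 were the most alike pair of the 10 genes (0.0669 log2 units). They were followed by Asb2 and Asb11 (0.122) and by Asb4 and Asb14 (0.145). Asb8 and Asb15 were the least alike (0.710). Among genes above background, the 5 nearest to Asb15 were Dhrs7c, an oxidoreductase of the sarcoplasmic reticulum (distance 0.0784, difference −1.36), Osbpl6, a lipid transfer protein (0.190, −1.08), myoregulin (Mrln), a micropeptide that inhibits the calcium pump (0.200, −1.20), Arhgap20 (0.210, −1.43), and the clone 2310065F04Rik (0.232, −0.99). Choosing genes near to Asb15 fixes that their groups separate, so no test is given for them. The 5 nearest to Asb8 were Efcab2, Tmf1, Gars, Isy1 and Stag2, at distances of 0.0188 to 0.0360 and with overlapping groups. Likeness over 6 arrays of 2 groups is a description of these arrays.

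The other 8 ASB genes had a median difference of −0.06, 5 were lower and 3 higher, and 0 passed (limma, 0 at an unadjusted p under 0.05). Their median was −0.15 without control 2 and −0.011 without knockout 2, and whether it differs from that of the 10 genes was not tested. Only Asb16 had groups that did not overlap, at 9.42, 9.26 and 9.32 in controls 1 to 3 and 9.19, 9.002 and 9.13 in knockouts 1 to 3, a difference of −0.23 (95% confidence interval −0.46 to 0.0002; limma, adjusted p = 0.622). Asb13 had a difference of −0.27 with overlapping groups (adjusted p = 0.711). Asb9, which neighbours Asb11 on the X chromosome, and Asb17 lay below background in both groups. Of the other 8 genes, 1 was separated as lower and 0 as higher, against 6.65% and 6.74% of all genes.

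**Figure D3:**
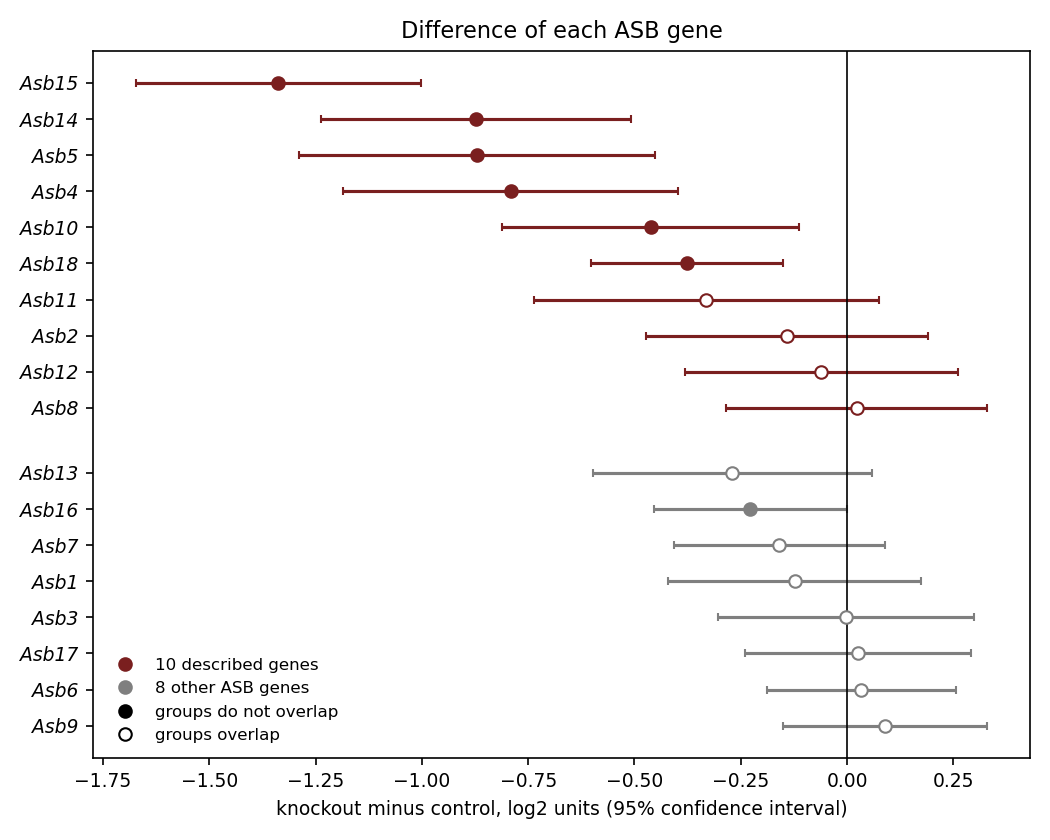
Difference between knockout and control means on the log2 scale (horizontal axis) with 95% confidence intervals for the 10 described ASB genes in dark red and the 8 other ASB genes in grey. Filled points mark genes whose groups do not overlap, 6 of the 10 and Asb16 among the others. The differences of the 10 genes run from −1.34 for Asb15 to 0.02 for Asb8.

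The parts of the ligase that all ASB proteins share showed no call. Cullin-5 (Cul5) was at 10.03, 9.76 and 10.002 in controls 1 to 3 and at 9.99, 9.76 and 9.88 in knockouts 1 to 3, with a difference of −0.06 (95% confidence interval −0.32 to 0.21; limma, adjusted p = 0.951). Its RING partner Rnf7 had a difference of −0.12, elongin B (Elob) −0.11 and elongin C (Eloc) 0.09, with adjusted p of 0.833 to 0.928. The list held 6 genes, with Cul2 and Rbx1 as near relatives, and 5 of them were measured. In all 5 the groups overlapped. The median difference was −0.06, with −0.12 under averaged probe sets, and without 1 array it ran from −0.14 (without control 2) to 0.016 (without knockout 2), so its sign is not settled. The intervals of the 4 genes named here all include 0 and reach no lower than −0.42.

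NEDD8 is the small modifier that switches cullin ligases on, and 22 of 23 genes of NEDD8, its enzymes and the E2 partners were measured. Of these, 16 were lower and 6 higher, with a median of −0.06, and 0 passed (limma, 2 at an unadjusted p under 0.05, against 8.04% of all genes). Ube2r2, an E2 enzyme, was at 11.17, 11.18 and 11.37 in controls 1 to 3 and at 11.01, 10.80 and 10.83 in knockouts 1 to 3, a difference of −0.36 without overlap (limma, adjusted p = 0.425). Groups did not overlap in 3 lower genes and 1 higher gene of the 22, against 6.65% and 6.74% of all genes. The higher gene was Nedd8 itself, with a difference of 0.18 (limma, adjusted p = 0.703). The list's median was −0.15 without control 2 and −0.015 without knockout 2.

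Other SOCS-box proteins use the same cullin or its relative cullin-2, and 22 of 23 were measured. Their median difference was −0.03, with 13 lower and 9 higher and 0 passing (limma, 2 at an unadjusted p under 0.05, against 8.04% of all genes). Without control 1 the median was 0.019 and without control 2 it was −0.085. In 4 genes the knockouts were lower without overlap, against 6.65% of all genes, and in 0 higher, against 6.74%. Socs7, of the cytokine signalling suppressors, was at 9.14, 9.20 and 9.13 in controls 1 to 3 and at 8.75, 8.84 and 8.97 in knockouts 1 to 3, a difference of −0.31 (limma, adjusted p = 0.453). Wsb1, a WD-repeat SOCS-box protein, had a difference of −0.31 without overlap (adjusted p = 0.533). Neurl2, also called Ozz and expressed in muscle, had a difference of 0.05 with overlapping groups (adjusted p = 0.957).

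Of 11 genes reported as ASB substrates or binding partners, 9 were measured, and 0 passed (limma, 2 at an unadjusted p under 0.05, against 8.04% of all genes). Filamin C (Flnc), the muscle filamin, was at 11.42, 11.62 and 11.65 in controls 1 to 3 and at 11.64, 12.10 and 12.11 in knockouts 1 to 3. Knockouts 2 and 3 lay above every control while knockout 1 lay just below the highest control, and the difference was 0.39 (95% confidence interval 0.05 to 0.72; limma, adjusted p = 0.551). In 2 of the 9 genes the knockouts were lower without overlap, against 6.65% of all genes. They were Hif1an, bound by ASB4 (difference −0.28; limma, adjusted p = 0.510), and Bik, a cell death protein (−0.20, adjusted p = 0.632). The list's median was −0.07, with 6 lower and 3 higher, −0.13 without control 3 and −0.045 without control 1. These are transcript levels, whereas the ligases act on proteins.

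**Figure D4:**
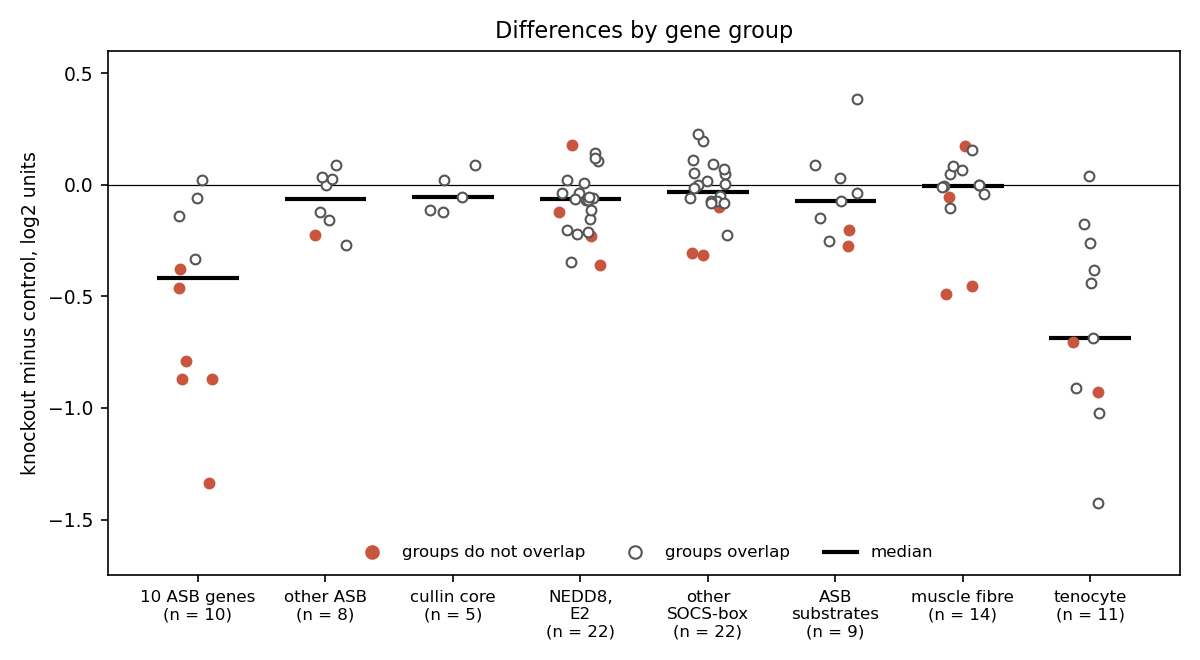
Difference between knockout and control means on the log2 scale (vertical axis) for every measured gene of 8 groups, with the median as a black bar and red points for genes whose groups do not overlap. The 10 ASB genes have a median of −0.42 and tenocyte markers of −0.68, while the medians of the other 6 groups lie between −0.07 and −0.004.

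Markers of muscle fibres and of other cells were read on the same arrays. For muscle fibre markers the log2 of the summed linear levels was 17.26 to 17.32 in controls and 17.24 to 17.27 in knockouts. Their median difference was −0.004 over 14 genes. Control means of Myh4 (14.15), Acta1 (14.12), Atp2a1 (14.07) and Actn3 (13.97) lay near the arrays' highest values, 14.31 to 14.34. A change may not register so near the top, so these values do not show an unchanged fibre content. Of the 14, 3 were lower without overlap, Myh1 (−0.49), Mylpf (−0.46) and Acta1 (−0.05), against 6.65% of all genes. Des (0.17) was higher without overlap, 1 of the 14 against 6.74% of all genes. Tenocyte markers were lower in 10 of 11 genes, with a median of −0.68 and 0 passing over all genes (limma, 6 at an unadjusted p under 0.05, against 8.04% of all genes). Fmod (−0.93) and Cpxm2 (−0.70) were lower without overlap, 2 of the 11 genes against 6.65% of all genes. Kera (−1.43) and Tnmd (−1.02), a tendon membrane protein, had overlapping groups. The log2 of the summed linear levels of the 11 tenocyte markers was 11.39 to 12.09 in controls and 10.56 to 11.66 in knockouts, lowest in knockout 3. Of the 11 markers, 10 lay above background, all but Mkx. The median of the 10 ASB genes was −0.42 with all arrays. Without 1 array it ran from −0.52 (without control 3) to −0.37 (without control 1). It was −0.48 without knockout 3, the knockout nearest to the controls in these genes. Markers of endothelium, smooth muscle and pericytes, fibro-adipogenic cells, macrophages, Schwann cells and satellite cells had medians of −0.11 to 0.01, and 5 adipocyte markers had a median of −0.23. The part of other cells in the ASB differences was not tested.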

How the data were processed

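The deposited table held log2 probe set summaries of 6 arrays (41345 probe sets). The submitters' processing notes name RMA, oligo and limma for these deposited values, and no version or order was found. RMA aligns the arrays' intensity distributions and compresses differences of dim transcripts. Precision is limited by having 3 arrays per group. Probe sets were named through GEO's platform annotation, and 23521 had 1 symbol. A gene was represented by its probe set with the highest mean, which left 22180 genes. Groups were compared on these log2 values with limma 3.58.1 in R 4.3.3 (lmFit and eBayes, defaults, two-sided, Benjamini-Hochberg over all genes, threshold 0.05). The fit was also run on simulated data with independent normal noise for each gene. Those data lack array effects shared between genes, so they cannot show how the fit behaves on these arrays. The background level used 1373 receptor genes and decided no call.

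The 10 genes and all gene lists were chosen with earlier results of these data known. The rule for named genes took the 10 genes, Map3k7, 7 fixed partner genes where measured, list members that passed or that differed by at least 0.3 without overlap, and the 5 genes nearest to the genes with the lowest and the highest difference. Asb13, Asb16, Asb9, Asb17, Nedd8, Hif1an, Bik, Egfl7, Myh1, Myh4, Mylpf, Acta1, Actn3, Atp2a1, Des, Fmod, Cpxm2, Kera, Tnmd and Mkx were named after their values were seen. Promoter windows came from RefSeq (GRCm38.p6), and the build behind the arrays is not given in the sources used here. Alternatives covered normalization, probe set choice, dim genes, variance model, a replicate block and each array left out. Plots used matplotlib 3.10.9 in Python 3.11.15.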

Additional observations from a re-analysis of the deposited data

How the results depend on the processing

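With 6 arrays, median centring, quantile normalization, averaging of probe sets, filters on dim genes, an intensity trend with robust prior and array weights kept the sign of all 10 genes and the call of Asb15, except that with averaged probe sets Asb12 was 0.027. Asb15 kept a difference of −1.34 but was not called with every probe set tested (adjusted p = 0.149), without shared variance (0.456) or with a replicate block (0.0783), which left 0 of the 10 genes called. Deviations of same-numbered arrays from their group means had correlations of 0.0791, 0.212 and −0.0721 across genes. With 3 arrays per group these cannot settle whether the numbers pair the mice, and no label says that they do. The block called 17 genes in all against 21.

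Without 1 array, Asb2 ran from −0.24 to 0.011, Asb8 from −0.10 to 0.13, Asb12 from −0.20 to 0.018, Asb5 from −1.09 to −0.73 and Asb15 from −1.44 to −1.17. The count of the 10 genes called as lower was 0 to 1, and that of genes lower without overlap, a count added after seeing the data, was 6 to 7. Over all genes, 1 to 3 were called higher and 1 to 8 lower. Medians ran from −0.15 to −0.011 for the other ASB genes, −0.085 to 0.019 for other SOCS-box proteins, −0.13 to −0.045 for substrates, −0.14 to 0.016 for the ligase core and −0.15 to −0.015 for NEDD8 and E2 partners. With all arrays, calls over all genes (9 higher, 12 lower) were 5 and 1 with every probe set, 19 and 34 with above-median genes, 16 and 24 with genes above background, 15 and 21 with a trend and robust prior, and 0 and 0 without shared variance (1612 at an unadjusted p under 0.05). The median of the other ASB genes was −0.14 with either filter, since fewer of them were then tested. Other causes were not tested.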
